A study of Mus musculus with 9 samples.

Results

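The 6 genes of zinc handling described here were measured in mouse lung and found by exact match of the symbols Mt1, Mt2, Mtf1, Slc39a14, Slc39a8 and Slc30a1 in a table of 32114 genes. Each symbol occurred in 1 row, and all 6 genes were among the 16227 with a mean of at least 0.5 FPKM (fragments per kilobase of exon, scaled to library depth) that were tested. They are the metal-binding proteins metallothionein 1 and 2, the zinc sensor MTF1, the zinc importers ZIP14 and ZIP8, and the zinc exporter ZnT1.

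Polyadenylated RNA of whole lung was sequenced in 3 groups with 3 libraries each. The LPS plus PD group received lipopolysaccharide, the endotoxin of Gram-negative bacteria, at 50 µg per mouse, and inhaled PD as an aerosol at 10 mg/mL. The abbreviation PD was taken to mean panaxadiol, a ginseng compound that the title names. The LPS group received the same dose of lipopolysaccharide without PD, and the control group received sterile saline. All mice were 12 weeks old and female per the labels. No strain, route of lipopolysaccharide or time of sampling is given in the sources used here, and the design names 6 animals per group without saying how they relate to the 3 libraries. The p-values therefore measure the spread between libraries, which may be technical.

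The libraries held between 15.2 M and 19.2 M reads, as recovered from the steps of the FPKM values. The lung markers were present: the summed level of 5 alveolar type 2 genes was 7613 to 12586 FPKM in LPS plus PD, 3169 to 10495 FPKM in LPS and 8043 to 14365 FPKM in control. The label female was contradicted in all 9 libraries, with Xist at no more than 0.0894 FPKM and the Y-linked gene Ddx3y at no less than 15.4 FPKM. LPS replicate 2 stood apart from the other libraries. Its highest correlation with any other library was 0.914 across genes, against at least 0.971 for each of the remaining 8. Differences of Mt1, Slc39a8, Slc39a14 and Slc39a1 from control were therefore also fitted without it. Ratios, sums, correlations and the lists of signal genes and cell markers are given with it only.

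Zinc is kept in balance by proteins that bind it, sense it and move it across membranes. Metallothioneins hold zinc and copper through clusters of cysteines, MTF1 switches on metallothionein and ZnT1 genes when free zinc rises, ZIP proteins bring zinc into the cytosol and ZnT proteins take it out. In inflammation, metallothioneins are known to be induced in liver by interleukin 6 and by glucocorticoids, and ZIP14 in liver by interleukin 6. ZIP8 is known to be induced by NF-kB signalling in human immune and lung epithelial cells.

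After LPS the transcripts of both zinc importers rose, and those of both metallothioneins stood higher in every LPS library than in any control library without passing the test. Slc39a8 averaged 53.6 ± 13.7 FPKM in LPS and 14.8 ± 5.32 FPKM in control, and Slc39a14 averaged 7.65 ± 2.94 FPKM in LPS and 2.74 ± 0.24 FPKM in control (SD, n = 3 each). Mt1 averaged 276 ± 146 FPKM in LPS and 82.4 ± 25.4 FPKM in control, and Mt2 averaged 16.3 ± 4.39 FPKM in LPS and 2.29 ± 0.43 FPKM in control. Slc30a1 differed less and Mtf1 hardly at all. None of the 6 passed the test between LPS plus PD and LPS.

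In limma's moderated test on log2(FPKM + 1) with Benjamini-Hochberg adjustment over all genes, 2 of the 6 passed a threshold of 0.05 for LPS against control, both higher, where 3.78% of all genes tested passed in either direction and 1.23% passed as higher. Calls over all genes leaned down, 200 higher and 413 lower, and this split depended on scaling, with 160 higher and 210 lower after median-ratio scaling and 204 higher and 188 lower after equal FPKM totals. Of the 6, 5 had 3 LPS libraries all above the highest control, which held for 13.8% of all genes tested. At an unadjusted p under 0.05 there were 5 of the 6 and 4857 of all 16227 genes (29.9%). For LPS plus PD against control 3123 of all genes (19.2%) were at that level, and counts at an unadjusted p are to be read against these shares. The median log2 difference of the 6 was 1.39, against -0.11 for all genes. With LPS plus PD set against control, 0 of 6 passed (4 at an unadjusted p under 0.05, against 19.2% of all genes, and 1 by limma's voom on the recovered reads), where 0.789% of all genes passed, and 4 of 6 had groups that did not overlap, where 13.3% of all genes did so as higher. Between LPS plus PD and LPS, 0 of 6 passed, also at an unadjusted p under 0.05 and by voom, where 0% of all genes passed, and 0 of 6 had groups that did not overlap, where 8.02% of all genes did so in either direction (653 of 16227 were at an unadjusted p under 0.05, and 0 passed by voom). The 2 comparisons with control share the control libraries, and the 2 with LPS share the LPS libraries, so their values are not independent of each other.

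**Figure D1:**
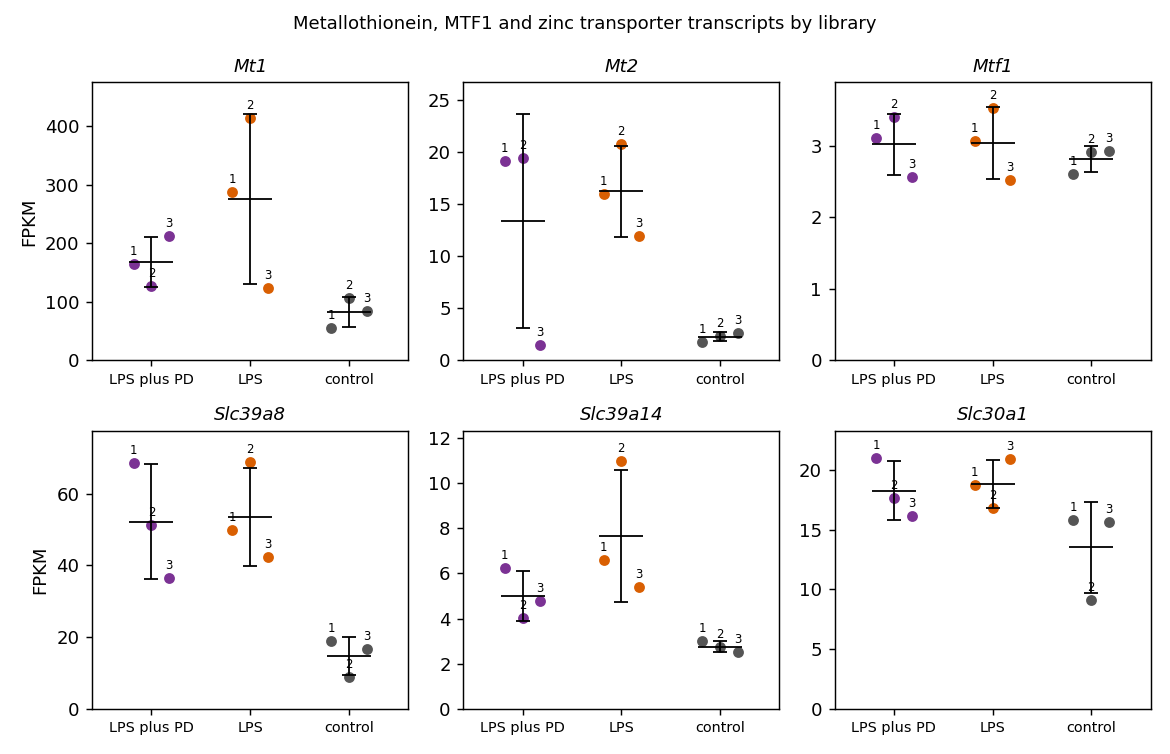
FPKM of the 6 genes (y axis, from 0) in each library of LPS plus PD, LPS and control (x axis). Points are libraries with their replicate number, bars the mean and SD of 3 libraries. Control lies below every LPS library in all genes but Mtf1, and Mt2 in LPS plus PD replicate 3 lies at the level of the controls.

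Mt1 encodes the more abundant of the 2 metallothioneins found in most tissues (ENSMUSG00000031765, GRCm38 chromosome 8, 94179082 to 94180327, plus strand). In replicates 1, 2 and 3, the order used throughout, it stood at 164, 128 and 213 FPKM in LPS plus PD, at 289, 415 and 125 FPKM in LPS, and at 55.8, 106 and 85.0 FPKM in control. All 3 LPS and all 3 LPS plus PD libraries lay above the highest control, and LPS replicate 2 was the highest library. The LPS libraries themselves ran from near the controls in replicate 3 to far above them in replicate 2. The log2 difference was 1.62 ± 0.43 (SE) for LPS against control (limma adjusted p = 0.0653). It was 1.04 ± 0.43 between LPS plus PD and control (adjusted p = 0.236) and -0.58 ± 0.43 between LPS plus PD and LPS (adjusted p = 0.866). Without LPS replicate 3, the lowest of its group, the difference from control was 2.11 and passed (adjusted p = 0.0329). Without LPS replicate 2 it was 1.24 (adjusted p = 0.108).

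Mt2 encodes the second general metallothionein and lies 5513 bases upstream of Mt1 on the same strand (ENSMUSG00000031762, chromosome 8, 94172664 to 94173568). Its values were 19.1, 19.4 and 1.51 FPKM in LPS plus PD replicates 1, 2 and 3. In the same order of replicates they were 16.0, 20.8 and 12.0 FPKM after LPS alone, against 1.82, 2.38 and 2.66 FPKM in control. Every LPS library lay above every control, as did LPS plus PD replicates 1 and 2, whereas LPS plus PD replicate 3 lay below all 3 controls. In reads, Mt2 had 195, 188 and 17 in the LPS plus PD libraries, 157, 186 and 121 in the LPS libraries and 18, 22 and 27 in the controls.

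That 1 library decided the tests of Mt2. With all libraries the log2 difference was 2.37 ± 0.70 for LPS against control (limma adjusted p = 0.0795) and 1.63 ± 0.70 for LPS plus PD against it (adjusted p = 0.252). Without LPS plus PD replicate 3, which enters the shared estimate of the spread, the first was 2.37 ± 0.20 (adjusted p = 0.0168) and the second was 2.63 (adjusted p = 0.0199). The difference between LPS plus PD and LPS was -0.74 ± 0.70 with that library (adjusted p = 0.866) and 0.27 without it (adjusted p = 0.994), so its sign depended on that library.

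The coding sequences are shown because likeness between the pair bears on how reads were assigned to each. The stretches below run from start to stop codon in GENCODE M21 (GRCm38), with cysteine codons, which give the metal-binding residues, in capitals.
Mt1, chr8:94179311-94180190 with introns removed: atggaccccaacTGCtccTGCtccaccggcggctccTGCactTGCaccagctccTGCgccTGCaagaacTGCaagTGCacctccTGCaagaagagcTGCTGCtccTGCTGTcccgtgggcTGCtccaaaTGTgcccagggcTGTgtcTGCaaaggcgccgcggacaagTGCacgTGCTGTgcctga
Mt2, chr8:94172848-94173424 with introns removed: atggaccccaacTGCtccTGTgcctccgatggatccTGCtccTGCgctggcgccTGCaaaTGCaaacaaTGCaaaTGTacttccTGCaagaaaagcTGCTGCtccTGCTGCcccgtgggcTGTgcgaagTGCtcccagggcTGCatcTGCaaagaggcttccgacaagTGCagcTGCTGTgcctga
Each has 61 codons before the stop, 20 of them for cysteine. The 2 sequences were identical at 148 of 186 positions (79.6%), and the longest run of identical bases was 20. No stretch of 30 bases of any annotated Mt1 transcript occurred, on the same strand, in an annotated transcript of another gene, and for Mt2 4 of 574 such stretches did, in Pip5k1a. The exon length behind the Mt1 FPKM is its whole span of 1246 bases, because 1 annotated transcript keeps the introns, so reads from unspliced RNA count towards Mt1 and its FPKM is 2.27 times lower than the length of its spliced transcript would give. For Mt2 that factor is 1.15.

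Mt1 and Mt2 did not keep a fixed ratio between libraries. For each Mt2 read there were 18.2, 13.9 and 299.9 Mt1 reads in LPS plus PD, 38.3, 42.4 and 22.0 in LPS and 65.1, 94.6 and 67.7 in control. Every LPS library had a lower ratio than every control. On the log2 scale of the FPKM ratio, the mean was 3.96 in LPS and 5.14 in control, a difference of -1.18 (two-sided exact permutation test, p = 0.1, the smallest p that 3 libraries against 3 can give). The mean was 4.32 in LPS plus PD and 5.14 in control, a difference of -0.82 (exact permutation p = 0.5), with replicate 3 above all controls and the other libraries of its group below them. The summed level of Mt1 and Mt2, each scaled by its own exon length, was 184, 147 and 215 FPKM in the LPS plus PD libraries, 305, 436 and 137 FPKM in the LPS libraries and 57.6, 109 and 87.7 FPKM in the controls. On the log2 scale with 1 added it was 1.67 higher in LPS than in control and 1.12 higher in LPS plus PD than in control (exact permutation p = 0.1 each). Between LPS plus PD and LPS the difference was -0.55 (exact permutation p = 0.4). Mt2 held 0.332% to 6.70% of the reads of both genes, so these sums largely restate Mt1.

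**Figure D2:**
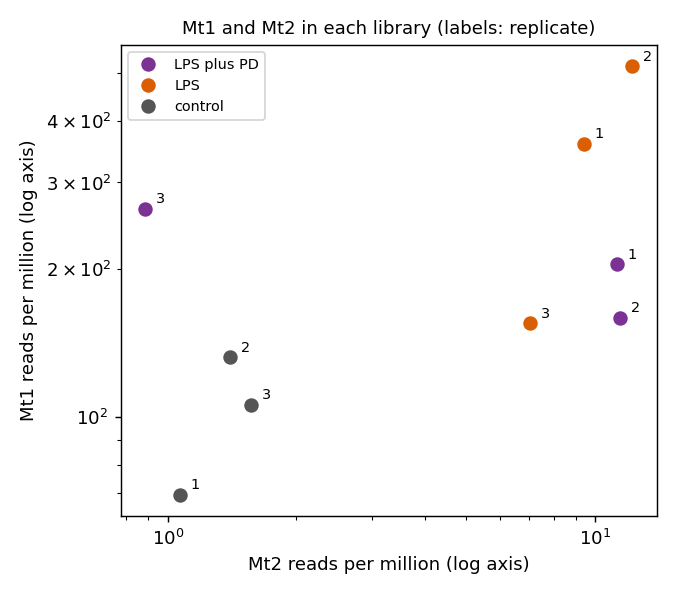
Mt1 (y axis) against Mt2 (x axis) in reads per M reads, both on log axes, for the 9 libraries, numbered by replicate and coloured by group. LPS plus PD replicate 3, with 266 Mt1 and 0.886 Mt2 reads per M reads, combines the Mt1 level of treated lungs with the Mt2 level of control lungs.

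Across the 9 libraries Mt1 and Mt2 had a Pearson r of 0.57 on log2(FPKM + 1), and deviations from the group means had an r of -0.08. Mt1 had an r of 0.89 with Slc39a14, the highest among the 15 pairs of the 6 genes. These coefficients describe 9 libraries that share group means and, in LPS, 1 library that stood apart. Those of Mt2 also rest on its 1 low library, LPS plus PD replicate 3. Among all other named protein-coding genes tested, those with the highest r to Mt1 were Ccdc93, Cabp4, Optn, the zinc exporter gene Slc30a5 and Galnt7, with r from 0.948 to 0.959. Those nearest to Mt2 were Wsb2, Dlg1, Aak1, Rprd1a and Gosr1, with r from 0.94 to 0.962. For deviations from the group means, their r with Mt2 was 0.888 to 0.947.

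The upstream sequences of the 2 genes are shown because MTF1 acts through metal response elements, whose core is written here as TGCACNC or TGCGCNC on either strand. The 250 bases before the RefSeq start on GRCm38.p6 are given, with each core in capitals.
Mt1 upstream, chr8:94178839-94179088, plus strand: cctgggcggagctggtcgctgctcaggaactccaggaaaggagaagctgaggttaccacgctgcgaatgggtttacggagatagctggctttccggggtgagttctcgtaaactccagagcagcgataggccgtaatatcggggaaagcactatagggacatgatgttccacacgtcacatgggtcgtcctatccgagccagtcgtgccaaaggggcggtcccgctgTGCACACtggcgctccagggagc
Mt2 upstream, chr8:94172368-94172617, plus strand: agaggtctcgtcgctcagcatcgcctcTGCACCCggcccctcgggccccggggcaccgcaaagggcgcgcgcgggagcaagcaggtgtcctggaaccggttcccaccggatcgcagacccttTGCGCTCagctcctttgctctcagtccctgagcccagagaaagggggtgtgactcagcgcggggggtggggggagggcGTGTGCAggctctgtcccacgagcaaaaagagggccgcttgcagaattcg
The Mt1 window held 1 core, at 23 bases before the start, and the 50 bases after the start held 2 more. The Mt2 window held 3 cores, and 1 more followed the start. The bases from there to the start codons, at 94179311 for Mt1 and 94172848 for Mt2, were not scanned. These counts therefore do not rank the 2 genes by their number of elements. Of all 32851 promoter windows of that length, 21.4% held at least 1 core and 1.26% at least 3. The element TTCNNNGAA, bound by STAT factors, was in neither window of 300 bases and in 8.3% of all such windows. Bases outside these windows, including those up to the start codons, were not scanned for it. A match of letters is no evidence of binding.

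Mtf1, the gene of the zinc-sensing transcription factor (ENSMUSG00000028890, chromosome 4, 124802104 to 124849800, plus strand), was low and even. It stood at 3.10, 3.40 and 2.56 FPKM in LPS plus PD, at 3.07, 3.53 and 2.52 FPKM in LPS and at 2.61, 2.92 and 2.93 FPKM in the 3 controls. The groups overlapped in every comparison. The log2 difference was 0.08 ± 0.14 for LPS against control (limma adjusted p = 0.738), with a 95% interval from -0.25 to 0.40. Between LPS plus PD and control it was 0.07, with an interval from -0.25 to 0.39 (adjusted p = 0.815). These values are transcript levels, and activation of MTF1 protein by zinc was not measured.

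Slc39a8 encodes ZIP8, a plasma membrane importer of zinc and manganese (ENSMUSG00000053897, chromosome 3, 135825279 to 135888572, plus strand). It was at 68.6, 51.2 and 36.6 FPKM in LPS plus PD, at 49.7, 68.8 and 42.3 FPKM in LPS and at 18.9, 8.81 and 16.8 FPKM in the 3 controls. The lowest library of either LPS-exposed group stood well above the highest control, and the LPS plus PD and LPS libraries overlapped. Slc39a8 rose by 1.82 ± 0.32 on the log2 scale in LPS against control (limma adjusted p = 0.0352). Its difference for LPS plus PD against control was of similar size, 1.77 ± 0.32, and missed the threshold (adjusted p = 0.0523), but passed without LPS replicate 2, which enters the shared spread (adjusted p = 0.0128). Relative to LPS, its difference in LPS plus PD was -0.06, with a 95% interval from -0.79 to 0.68 (adjusted p = 0.978).

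Slc39a14 encodes ZIP14, an importer of zinc, manganese and iron (ENSMUSG00000022094, chromosome 14, 70303469 to 70351425, minus strand). It stood at 6.22, 4.04 and 4.76 FPKM in LPS plus PD, at 6.59, 11.0 and 5.39 FPKM in LPS and at 2.98, 2.75 and 2.50 FPKM in the 3 controls. All 6 LPS-exposed libraries lay above all controls, with LPS replicate 2 the highest. It rose by 1.16 ± 0.24 in LPS against control (limma adjusted p = 0.0423). The difference was 0.67 ± 0.24 for LPS plus PD against control (adjusted p = 0.182) and -0.49 ± 0.24 for LPS plus PD against LPS (adjusted p = 0.866, unadjusted p = 0.0671), with a 95% interval from -1.02 to 0.04. Without LPS replicate 2 these values were 0.90 for LPS against control, where the call held (adjusted p = 0.0352), and -0.23 for LPS plus PD against LPS. In the same fit the difference between LPS plus PD and control was 0.67 and passed (adjusted p = 0.0341). The genes whose pattern over the 9 libraries was nearest to Slc39a14 were D16Ertd472e, the neutrophil-attracting chemokine gene Cxcl2, Hccs, Haus2 and the matrix protease gene Mmp14, with r from 0.972 to 0.984.

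The calls on both importers depended on single libraries. Slc39a8 and Slc39a14 each passed without LPS replicate 2 or LPS replicate 3, and each missed the threshold without any other library, that is without control replicate 1, 2 or 3, LPS replicate 1 or LPS plus PD replicate 1, 2 or 3. In those 7 fits the adjusted p was 0.0522 to 0.128 for Slc39a8, with log2 differences from 1.51 to 2.02, and 0.0576 to 0.154 for Slc39a14, with log2 differences from 1.11 to 1.23.

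**Figure D3:**
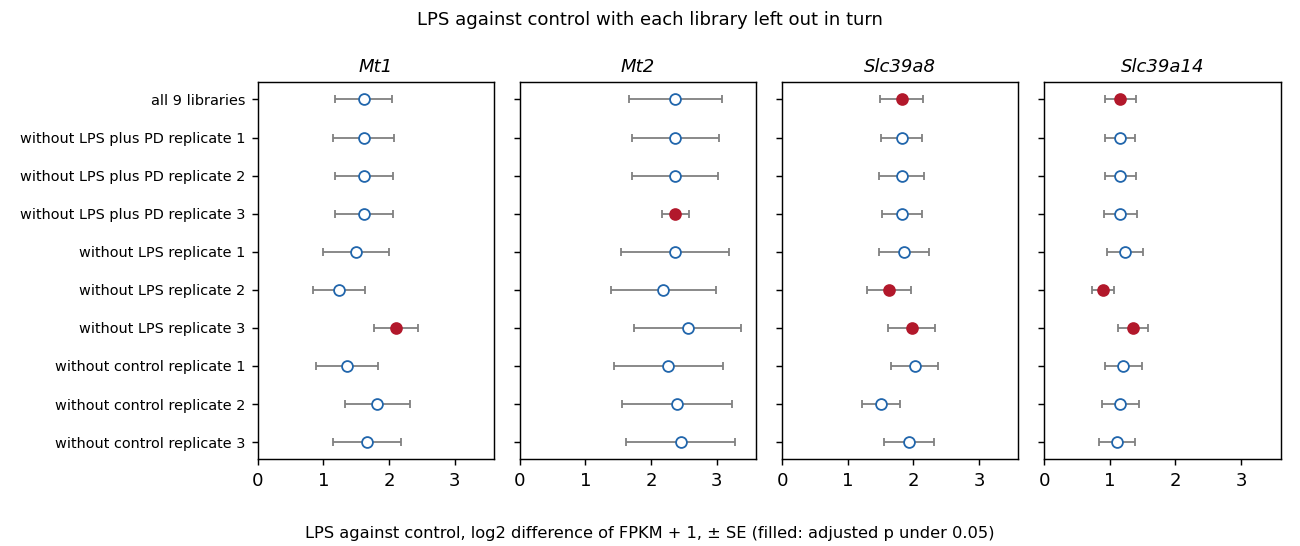
Log2 difference of FPKM + 1 with SE (x axis) for LPS against control with all 9 libraries (top) and with each library left out (rows below), for Mt1, Mt2, Slc39a8 and Slc39a14. Filled points have an adjusted p under 0.05. All differences are above 0, the calls come and go, and the error of Mt2 shrinks without LPS plus PD replicate 3.

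Slc30a1 encodes ZnT1, the exporter that carries zinc out through the plasma membrane (ENSMUSG00000037434, chromosome 1, 191906767 to 191913247, plus strand). It was at 21.0, 17.6 and 16.1 FPKM in LPS plus PD, at 18.7, 16.8 and 20.9 FPKM in LPS and at 15.8, 9.08 and 15.6 FPKM in the 3 controls. Both LPS-exposed groups lay above the controls by a narrow margin, and control replicate 2 was the lowest library by far. The log2 difference was 0.48 ± 0.21 for LPS against control (limma adjusted p = 0.167) and 0.44 ± 0.21 for LPS plus PD against control (adjusted p = 0.300). Without control replicate 2 these were 0.24 and 0.19. Its upstream window, shown as a known target of MTF1, held 1 core of the metal response element.
Slc30a1 upstream, chr1:191906531-191906780, plus strand, 250 bases before the RefSeq start on GRCm38.p6: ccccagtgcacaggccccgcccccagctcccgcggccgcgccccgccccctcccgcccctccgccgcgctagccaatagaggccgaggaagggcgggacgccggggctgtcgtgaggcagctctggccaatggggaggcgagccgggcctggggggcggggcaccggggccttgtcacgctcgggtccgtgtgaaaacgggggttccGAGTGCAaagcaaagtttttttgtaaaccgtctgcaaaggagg
Of the other members, the windows of Mtf1 and of the first RefSeq start of Slc39a8 held no such core, and the window of the second start of Slc39a8 held 1. Slc39a14 was not in the table of promoters.

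**Figure D4:**
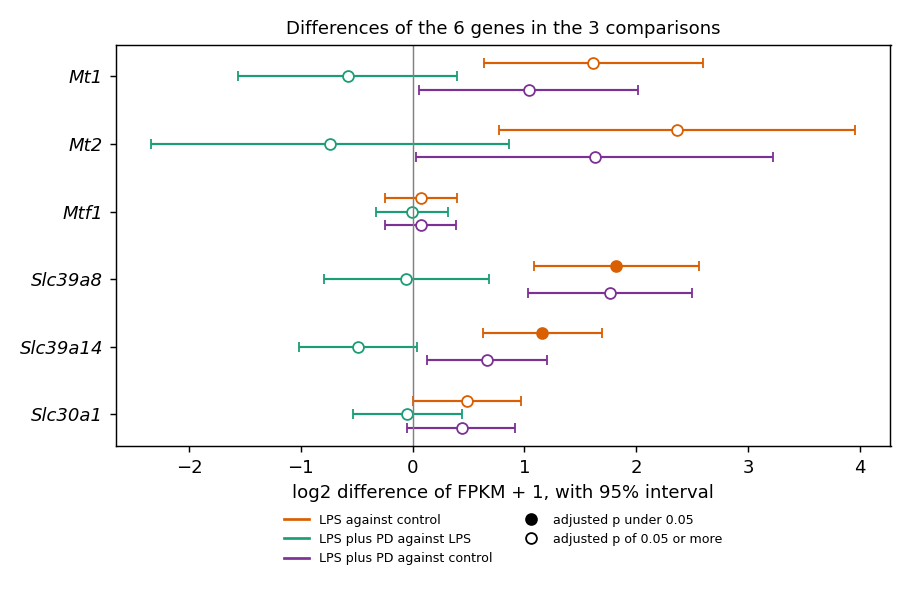
Log2 difference of FPKM + 1 with its 95% interval (x axis) for the 6 genes (rows) in the 3 comparisons (colours). Filled points have an adjusted p under 0.05, which held for Slc39a8 and Slc39a14 in LPS against control. Every interval of LPS plus PD against LPS includes 0.

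Per length of exon, the order of the 6 genes differed between LPS-exposed and control lungs. In the controls Mt1 was the highest in every library, Slc39a8 and Slc30a1 followed with overlapping levels, and Slc39a14, Mtf1 and Mt2 all lay between 1.82 and 2.98 FPKM with overlapping levels. In the LPS libraries Mt1 was again the highest, Slc39a8 stood alone in second place in every library, Slc30a1 and Mt2 overlapped, and Slc39a14 lay above Mtf1 in every library. In LPS plus PD, Mt1 and Slc39a8 kept the first and second place in every library, and Mt2 took a value close to Slc30a1 in replicates 1 and 2 and the lowest of the 6 in replicate 3.

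Of 16 further tested genes of the zinc transporter and metallothionein families, 1 rose and 0 fell for LPS against control. Of all genes 1.23% passed as higher and 3.78% in either direction. At an unadjusted p under 0.05 there were 4 of the 16, against 29.9% of all genes. The median log2 difference of the 16 was 0.05, against -0.11 for all genes. The 1 that rose was Slc39a1, which encodes the plasma membrane importer ZIP1. It stood at 62.0, 54.3 and 51.1 FPKM in LPS plus PD, at 58.5, 77.4 and 60.7 FPKM in LPS and at 42.4, 38.7 and 31.8 FPKM in the 3 controls, so that every LPS-exposed library lay above every control. It rose by 0.78 ± 0.17 (limma adjusted p = 0.0446), a call that held without LPS replicate 3 and was lost without each other library (adjusted p from 0.0543 to 0.158). It was also lost with only the 6 libraries compared (adjusted p = 0.114), with no filter on low values (0.0809) and with median-ratio scaling of the libraries (0.051). By class, 1 of 10 other ZIP genes rose, with log2 differences from -0.79 to 0.78, and 0 of 5 other ZnT genes passed, with differences from -0.33 to 0.17 and 0 at an unadjusted p under 0.05. The lowest ZIP gene, Slc39a11, had a difference of -0.79 ± 0.19 and narrowly missed the threshold (limma adjusted p = 0.0553). Mt3, a metallothionein mainly of brain, was at 1.19 ± 0.50 FPKM in LPS plus PD, 1.62 ± 1.15 FPKM in LPS and 3.24 ± 1.66 FPKM in control, and did not pass (log2 difference -0.69 for LPS against control, adjusted p = 0.255). Mt4, a metallothionein of squamous epithelium, was below the filter, with 0.33 FPKM as its highest value.

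In LPS plus PD against control, 0 of the 16 passed (5 at an unadjusted p under 0.05, against 19.2% of all genes), with a median of -0.02. The 2 with the smallest p among the zinc and copper genes were Slc39a11, which encodes ZIP11, with a log2 difference of -0.75 ± 0.19 (limma adjusted p = 0.105), and Slc39a1, with 0.56 ± 0.17 (adjusted p = 0.141). Slc39a11 averaged 5.97 ± 0.49 FPKM in LPS plus PD, 5.74 ± 0.50 FPKM in LPS and 11.0 ± 3.36 FPKM in control. In LPS plus PD against LPS, 0 of the 16 passed (1 at an unadjusted p under 0.05, against 4.02% of all genes), with a median of -0.04. The 2 with the smallest p were Slc39a10, which encodes the importer ZIP10, with -0.44 ± 0.13, and Slc39a3, which encodes ZIP3, with 0.36 ± 0.19 (adjusted p = 0.866 each). Slc39a10 was at 7.21 ± 0.83 FPKM in LPS plus PD, 10.1 ± 1.19 FPKM in LPS and 7.98 ± 0.15 FPKM in control. Its LPS plus PD and LPS libraries did not overlap, which held for 8.02% of all genes. Of 10 copper-handling genes 0 passed in any comparison, with 3 at an unadjusted p under 0.05 for LPS against control, where 29.9% of all genes were, and 0 for the other comparisons.

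**Figure D5:**
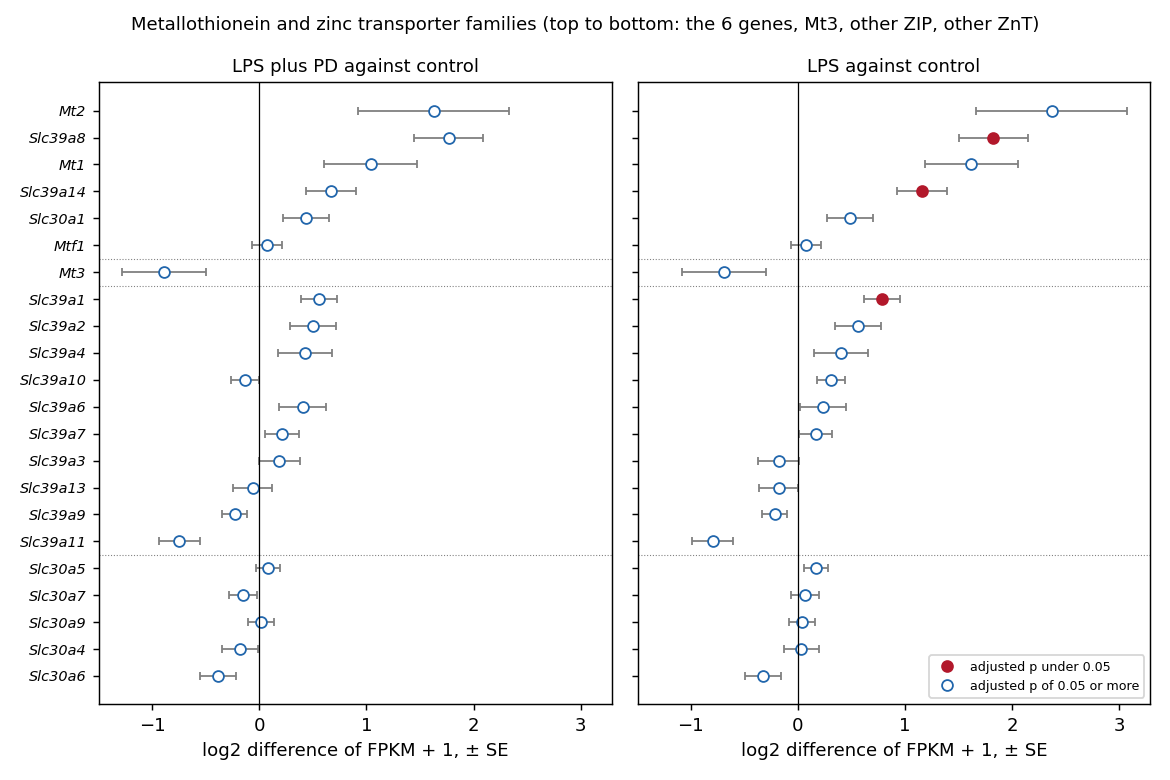
Log2 difference of FPKM + 1 with SE (x axis, shared) for the 6 genes, Mt3, 10 other ZIP genes and 5 other ZnT genes (rows), for LPS plus PD against control (left) and LPS against control (right). Filled points have an adjusted p under 0.05. On this scale Mt1, Mt2, Slc39a8 and Slc39a14 lie to the right of Slc39a1, the highest of the other family genes, in both panels. The order depends on the added 1, which shrinks the difference of low genes such as Slc39a2. That gene averaged 0.98 ± 0.08 FPKM in LPS plus PD, 1.12 ± 0.70 FPKM in LPS and 0.40 ± 0.12 FPKM in control.

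Genes of the signals known to induce metallothioneins were read from the same fit. Of 6 genes of the interleukin 6 and STAT3 axis 1 passed for LPS against control, where 1.23% of all genes passed as higher. It was Il6ra, the interleukin 6 receptor, which rose by 1.01 ± 0.20 (limma adjusted p = 0.0414). At an unadjusted p under 0.05 there were 5 of the 6, against 29.9% of all genes, and the list's median was 0.84. Il6 itself was at 1.19, 0.276 and 1.16 FPKM in LPS plus PD, at 1.41, 25.4 and 1.39 FPKM in LPS and at 0.0734, 0.682 and 0.286 FPKM in the 3 controls, with LPS replicate 2 far above the rest. Of 8 genes of the glucocorticoid receptor and its targets 3 rose, Fkbp5, a chaperone of that receptor, by 1.79, Cdkn1a, a cell cycle inhibitor, by 1.67, and Sgk1, a kinase, by 1.44 (adjusted p from 0.0441 to 0.0478), with a median of 0.99. At an unadjusted p under 0.05 there were 4 of the 8. The calls of Il6ra, Fkbp5, Cdkn1a and Sgk1 lay near the threshold and were not followed with each library left out. Of these lists, 0 of 6 and 0 of 8 genes passed in LPS plus PD against control (3 and 6 at an unadjusted p under 0.05, against 19.2% of all genes), and 0 of 6 and 0 of 8 passed in LPS plus PD against LPS (0 and 1 at an unadjusted p under 0.05). Between LPS plus PD and LPS, the smallest p on the first list were those of Il6 (log2 difference -1.55) and its co-receptor gene Il6st (0.24), and on the second those of Dusp1, a phosphatase gene (0.51), and Fkbp5 (-0.74), each with an adjusted p of 0.866. Against control, LPS plus PD had the smallest p for Il6ra (0.88, adjusted p = 0.0841), the kinase gene Jak1 (0.57, adjusted p = 0.222), Dusp1 (0.72, adjusted p = 0.145) and Sgk1 (1.02, adjusted p = 0.15). Whether these signals acted on the 6 genes was not tested.

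Markers of other cell types also differed between the groups, and in whole lung more cells of a type cannot be told apart from more RNA per cell. Of 8 neutrophil markers 7 rose for LPS against control and 2 for LPS plus PD against control. Of all genes 3.78% and 0.789% passed in these comparisons, in either direction. Their summed level was 1281 to 3962 FPKM in LPS plus PD, 1226 to 4506 FPKM in LPS and 101 to 364 FPKM in control, and none of the 8 was at 0 in any group. LPS plus PD replicate 3, where Mt2 was low, had the highest neutrophil sum of its group. Most of that sum was S100a8 and S100a9, which averaged 947 and 1280 FPKM in LPS plus PD. Of 8 macrophage and monocyte markers 0 passed for LPS against control (6 at an unadjusted p under 0.05, against 29.9% of all genes) and 0 for LPS plus PD against control (3 at an unadjusted p under 0.05, against 19.2%). Their sum was 2263 to 3165 FPKM in LPS plus PD, 1520 to 3811 FPKM in LPS and 1078 to 1448 FPKM in control, and none was at 0. Most of that sum was Lyz2, which averaged 2436 FPKM in LPS plus PD, 2118 FPKM in LPS and 1212 FPKM in control. Of 5 heart muscle markers 4 fell, and of 6 markers of secretory and ciliated airway cells 2 fell for LPS against control. Of the 6 fibroblast markers 1, Pdgfra, rose (limma adjusted p = 0.0359), while the 5 matrix genes Col1a1, Col1a2, Col3a1, Dcn and Lum had log2 differences of -0.88, -0.76, -1.13, -0.92 and -1.21 without passing. All 6 were at an unadjusted p under 0.05, and the list's median was -0.90. Of the 5 alveolar type 2, 5 alveolar type 1, 6 endothelial, 3 adipocyte and 3 erythroid markers 0 passed in that comparison (2, 1, 0, 2 and 0 at an unadjusted p under 0.05, against 29.9% of all genes). Liver, where metallothioneins are abundant, left little trace: Alb was at no more than 0.634 FPKM in any library. The part of these shifts in the levels of the 6 genes was not tested.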

How the data were processed

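Whole-lung polyA RNA was measured in 9 libraries, 3 per group. The authors deposited FPKM per gene; HISAT2, StringTie, FastQC and bcl2fastq, with build GRCm38, are named in the submitters' processing notes. Tool versions, strandedness, annotation release and handling of multiply mapped reads were not given in the sources used here. Library depth was found as the total at which FPKM steps become whole reads; in each library 95.6% to 96.0% of values below 1000.0 reads were whole to within 0.05.

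Genes with a mean of at least 0.5 FPKM were tested on log2(FPKM + 1), which understates changes of low genes, with limma 3.58.1 (R 4.3.3; trended empirical Bayes, all 9 libraries in 1 fit, no covariate) and Benjamini-Hochberg adjustment over all 16227 genes. Sums and ratios of Mt1 and Mt2 were compared by exact permutation in scipy 1.17.1. Sequences came from GENCODE M21 and RefSeq. The code was tested on simulated data. Named were all 6 genes; of the other zinc and copper genes, those past the threshold or else the 2 with the smallest p; up to 4 by the same rule on the interleukin 6 and glucocorticoid lists; and the 5 genes nearest in Pearson r to Mt1, Mt2 and Slc39a14. The 6 genes, lists and rules were chosen with earlier results of these data known. Alternatives were other pseudocounts, filters, scalings, fits and each library left out, and voom on recovered reads (at least 5 on average), which was chosen after seeing the data.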

Additional observations from a re-analysis of the deposited data

How the results depend on the processing

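Of 375 log2 differences of the 6 genes under 21 alternatives, 330 kept direction and side of the threshold. Of the rest, 20 lost the call, 14 gained one and 11 changed sign, and causes were not tested. Several alternatives cannot change the difference itself, and most differences had no call to lose. All 20 losses were of Slc39a8 and Slc39a14 for LPS against control, the only 2 calls in the main fit. Each of these 2 kept its call in 2 of 9 fits with a library left out and in 9 of 12 other settings. For LPS against control (613 genes and 2 of the 6 passing), the counts were 38 and 0 with no filter, 9 and 1 with only the 6 libraries compared (the 1 was Mt2), 3308 and 4 with array weights, and 7 to 1038 and 0 to 3 with a library left out. Over all genes they were 270 at a mean of at least 5 FPKM, 370 with median-ratio scaling and 392 with equal FPKM totals; scaling moved the median of all genes from -0.11 to 0.00 and 0.04. In LPS plus PD against control (128 and 0), the counts were 6 genes with no filter, 1193 and 2 with only the 6 libraries, 1568 and 2 with array weights, and 2 to 1613 and 0 to 2 with a library left out, with the 1613 without LPS replicate 2; 1 of the 6 passed at a mean of at least 5 FPKM and 1 with voom. For LPS plus PD against LPS (0 and 0), 1 gene passed with median-ratio scaling, 1 with quantile normalization and 2 with array weights, none of the 6. Replicate numbers were not treated as pairs in the main fit. Deviations of same-numbered libraries had r from -0.183 to 0.192, against -0.212 to 0.108 for differently numbered ones. With 3 libraries per group these values cannot exclude a pairing. With the replicate block 10 genes and 0 of the 6 passed for LPS against control and 4 genes in LPS plus PD against control, and Slc39a1 lost its call (adjusted p = 0.0924). Signs changed for Mtf1 in LPS against control (-0.01 to 0.17 with a library left out). In LPS plus PD against LPS they changed, with a library left out, for Mt2 (-1.25 to 0.27), Mtf1 (-0.10 to 0.08), Slc39a8 (-0.27 to 0.17) and Slc30a1 (-0.15 to 0.03), and with array weights for Mtf1 (0.01) and Slc39a8 (0.13). Mt2 rests on 17 to 27 reads in the controls and LPS plus PD replicate 3, which limits its precision there.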
